A study of Mus musculus with 6 samples.

Results

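The 7 genes Alpl, Phospho1, Enpp1, Ank, Slc20a1, Slc20a2 and Smpd3 set the balance of phosphate and pyrophosphate at sites of mineral formation. They were chosen by gene symbol from what their products do, with earlier results of these data known. All 7 were found among the 24346 symbols measured. Messenger RNA came from the nasomaxillary complex, that is the nose and upper jaw with their bone, cartilage and soft tissue, of E17.5 mouse embryos. The 3 mutant libraries are labelled Wnt1-Cre:Pth1r f/f, which means homozygous floxed Pth1r, which encodes the receptor shared by parathyroid hormone and parathyroid hormone-related protein, plus a Cre driven by the Wnt1 promoter. Wnt1-Cre recombines in neural crest cells and their descendants, which form most of the facial skeleton, so cells of other origin in the dissection keep an intact receptor gene. The 3 control libraries are labelled Pth1r f/f and carry the same floxed alleles without Cre, so effects of Cre itself and of receptor loss cannot be told apart. The tissue was untreated, and the labels do not say whether each library came from its own embryo or litter, so the p-values speak only to the spread among these 6 samples, which may be technical.

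Bone and hypertrophic cartilage mineralize when phosphate joins calcium to form crystals, first inside vesicles shed by osteoblasts and chondrocytes and then along collagen fibrils. Pyrophosphate outside the cell blocks crystal growth. Alkaline phosphatase, the product of Alpl, cuts pyrophosphate into phosphate and so removes the inhibitor. Enpp1 encodes the ectoenzyme that makes pyrophosphate from extracellular ATP, and Ank encodes a membrane protein needed for its appearance outside the cell. Phospho1 encodes a phosphatase that frees phosphate from phosphocholine inside matrix vesicles. Smpd3 encodes a neutral sphingomyelinase, which yields phosphocholine from sphingomyelin and whose loss leaves mouse bone poorly mineralized. Slc20a1 and Slc20a2 encode the sodium-coupled carriers that bring phosphate into many kinds of cell.

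The sequences upstream of the annotated starts of 3 of the genes are shown because several members had similar profiles across libraries: Alpl, the most abundant member, Phospho1, its partner phosphatase, and Enpp1, the member with the largest difference. Each is the 250 bases before the gene's start in RefSeq (GRCm38.p6), read along the gene's strand. Capitals mark TGACG, the core of the cyclic AMP response element, since the receptor signals through cyclic AMP, or TGTGGT, the core bound by Runx factors, on either strand.
Alpl, chr4:137796385-137796634, minus strand: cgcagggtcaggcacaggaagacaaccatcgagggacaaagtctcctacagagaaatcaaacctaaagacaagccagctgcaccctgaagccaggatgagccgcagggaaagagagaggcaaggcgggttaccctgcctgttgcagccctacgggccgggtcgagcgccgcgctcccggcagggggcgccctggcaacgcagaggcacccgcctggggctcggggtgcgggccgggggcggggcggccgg
Phospho1, chr11:95824250-95824499, plus strand: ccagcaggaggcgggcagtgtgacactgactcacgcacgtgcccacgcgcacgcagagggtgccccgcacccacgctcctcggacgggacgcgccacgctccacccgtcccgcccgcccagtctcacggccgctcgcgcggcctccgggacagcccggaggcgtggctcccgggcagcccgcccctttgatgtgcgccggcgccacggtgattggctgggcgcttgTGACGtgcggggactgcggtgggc
Enpp1, chr10:24712160-24712409, minus strand: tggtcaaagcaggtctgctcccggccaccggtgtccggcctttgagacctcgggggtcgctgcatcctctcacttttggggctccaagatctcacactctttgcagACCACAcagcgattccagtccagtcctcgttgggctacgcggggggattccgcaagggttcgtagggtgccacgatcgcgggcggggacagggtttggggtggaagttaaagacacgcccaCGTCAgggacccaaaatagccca
TGACG, or its complement CGTCA, began 24 bases before the start of Phospho1 and 23 bases before that of Enpp1, and TGTGGT, as its complement ACCACA, began 144 bases before the start of Enpp1. Neither stood in the Alpl window shown. GGGCGG, the core of the GC box, stood on either strand in all 3 windows shown, at 2 overlapping places for Alpl, 3 places for Phospho1 and 1 for Enpp1. Among 32851 windows of the same length, 17.8% held TGACG, 14% held TGTGGT and 32.7% held GGGCGG on either strand. In the windows shown, the matches do not overlap one another except GC boxes within the Alpl and the Phospho1 windows. The window before the other annotated Alpl start held CGTCA, beginning 128 bases before it. Of the 2 windows of Slc20a1, a carrier, the first held CGTCA and TGTGGT and the second CGTCA at 2 places. The Ank window held neither TGACG nor TGTGGT on either strand, and held the GC box at 2 overlapping places. Both Slc20a1 windows held the GC box too. These matches are letters in a window and not shown to be bound. The other annotated Alpl start lies 29909 bases further along the gene, and the FPKM value per symbol does not separate transcripts of the 2 starts. RefSeq windows were found for 5 of the 7 genes, and not for Slc20a2 and Smpd3.

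Levels are in FPKM, fragments mapped per kilobase of transcript, relative to library size, so genes of different length can be set side by side. Alpl was the most abundant of the 7 in both groups, at 129.2 ± 14.5 FPKM in mutant and 156.6 ± 24.0 FPKM in control libraries (SD, n = 3 each). Smpd3 and Ank followed, Smpd3 at 43.8 ± 3.30 and Ank at 42.3 ± 5.16 FPKM in mutant libraries, with Smpd3 at 54.8 ± 10.3 and Ank at 49.7 ± 4.73 FPKM in control libraries, and these neighbours did not differ beyond their spread. Slc20a1, Slc20a2 and Enpp1 lay lower, and Phospho1 was the least abundant. Enpp1 stood below all values of Slc20a2 in the mutant libraries, whereas in the control libraries its values overlapped with those of both carriers. The plot of levels in the 6 libraries shows each value.

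**Figure D1:**
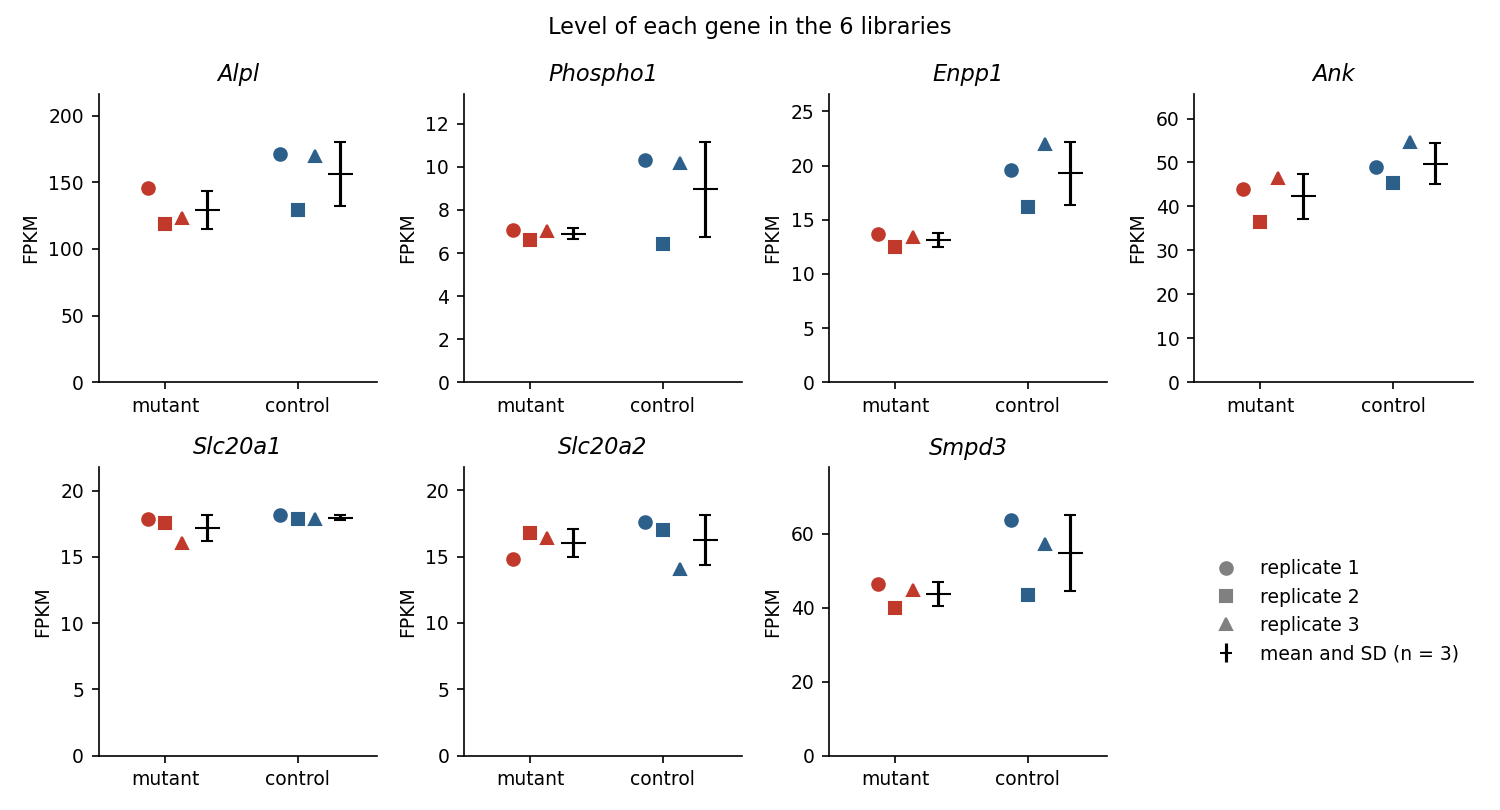
FPKM (y axis, from 0) of each of the 7 genes in the 3 mutant (red) and 3 control (blue) libraries, with the marker shape giving the replicate and the black bar the mean and SD. Enpp1 is the only panel in which every mutant point (12.4 to 13.7 FPKM) lies below every control point (16.2 to 22.0 FPKM).

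The comparison of mutant with control libraries asks whether the genes that handle phosphate and pyrophosphate changed with deletion of Pth1r in the neural crest. None of the 7 was called by limma at a Benjamini-Hochberg adjusted p under 0.05, over the 14766 genes averaging 1 FPKM or more. Of all tested genes 0.203% were called lower (30 genes) and 0.061% higher (9 genes). At an unadjusted p under 0.05 there was 1 member, Enpp1, against 11.3% of all tested genes. The log2 changes of all 7 members were negative, against 50.8% of all tested genes, and their median was -0.27, against -0.0020 over all tested genes. As the members were chosen with earlier results of these data known, this count is a description only. The sign of Slc20a2 turned when single libraries were left out, as given below. All log2 changes are of FPKM + 1, mutant minus control, and understate the change of genes at low FPKM. In bulk tissue, fewer cells of a type and less RNA per cell cannot be told apart.

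Among the suppliers of pyrophosphate, Enpp1 (chromosome 10, 24637914 to 24712159, minus strand, GRCm38) measured 13.7, 12.4 and 13.4 FPKM in mutant replicates 1 to 3, against 19.6, 16.2 and 22.0 FPKM in control replicates 1 to 3. The groups did not overlap, which was so in the same direction for 9.16% of all tested genes. The mutant mean was 0.683 times the control mean. Its log2 change was -0.51 ± 0.11 (SE), with a 95% interval from -0.76 to -0.26, an unadjusted p of 0.0018 and a limma adjusted p of 0.168. By unadjusted p it ranked at place 158 of the 14766 genes. The exact permutation test of 3 against 3 libraries gave p = 0.1 (two-sided), the smallest value that design allows. Ank (chromosome 15, 27466677 to 27594909, plus strand) measured 43.9, 36.5 and 46.4 FPKM in mutant libraries, against 49.1, 45.4 and 54.8 FPKM in control libraries. Mutant replicate 3 lay above control replicate 2, so the groups overlapped. The log2 change of Ank was -0.23 ± 0.10, with an interval from -0.48 to 0.0097 and a limma adjusted p of 0.454, and it was -0.13 without mutant replicate 2.

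Among the phosphatases, Alpl (chromosome 4, 137741733 to 137796384, minus strand) measured 145.8, 118.7 and 123.1 FPKM in mutant libraries, against 171.4, 128.9 and 169.5 FPKM in control libraries. Mutant replicate 1 lay above control replicate 2, the lowest control, and the other control libraries lay above all mutant libraries. Its log2 change was -0.27 ± 0.13, with an interval from -0.57 to 0.026 and a limma adjusted p of 0.48. Phospho1 (chromosome 11, 95824499 to 95832140, plus strand) measured 7.08, 6.59 and 7.02 FPKM in mutant libraries, against 10.3, 6.41 and 10.2 FPKM in control libraries. The mutant values were close together, and control replicate 2 lay below all of them. The log2 change of Phospho1 was -0.31 ± 0.16, with an interval from -0.68 to 0.066 and a limma adjusted p of 0.522. Without control replicate 2 it was -0.51 (limma adjusted p = 0.104), and without control replicate 1 it was -0.21. In the GENCODE annotation the exons of Phospho1 share 1818 of 2029 bases with Zfp652 on the same strand and 1708 bases with Abi3 on the opposite strand. Abi3 measured 27.8, 24.3 and 26.3 FPKM in mutant libraries and 33.3, 24.7 and 32.2 FPKM in control libraries, and was also lowest among controls in replicate 2. Zfp652 averaged 8.22 ± 1.04 FPKM in mutant and 8.09 ± 0.916 FPKM in control libraries (SD, n = 3 each). How the authors assigned fragments of these shared bases, and whether by strand, is not given in the sources used here, so the level of Phospho1 is uncertain. Exons of other members met only genes of the opposite strand, over 247 bases for Smpd3 (Prmt7), 95 for Slc20a2 (Smim19) and 280 and 452 for Slc20a1 (Gm4430 and 9830144P21Rik), apart from Mir7117 within Ank, which was listed at 0.

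Smpd3 (chromosome 8, 106252548 to 106337988, minus strand), a source of phosphocholine in the same route, measured 46.4, 40.0 and 44.9 FPKM in mutant libraries. Its control values were 63.7, 43.6 and 57.2 FPKM. Control replicate 2 again lay within the range of the mutant libraries. The log2 change of Smpd3 was -0.30 ± 0.13, with an interval from -0.62 to 0.0094 and a limma adjusted p of 0.449. It was -0.46 without control replicate 2 and -0.19 without control replicate 1.

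The phosphate carriers were the most even members. Slc20a1 (chromosome 2, 129198764 to 129211616, plus strand) measured 17.8, 17.6 and 16.0 FPKM in mutant libraries, against 18.2, 17.8 and 17.8 FPKM in control libraries. All but mutant replicate 3 lay within a narrow band. Its log2 change was -0.063 ± 0.056 (limma adjusted p = 0.737), and the interval from -0.20 to 0.069 bounds the change in either direction. Slc20a2 (chromosome 8, 22476788 to 22569612, plus strand) measured 14.8, 16.8 and 16.4 FPKM in mutant libraries, against 17.6, 17.03 and 14.1 FPKM in control libraries. The groups overlapped throughout. Its log2 change was -0.014 ± 0.092, with an interval from -0.23 to 0.20 and a limma adjusted p of 0.973, and was positive when control replicate 1, control replicate 2 or mutant replicate 1 was left out.

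The libraries differed in sex, read from Xist and Y-linked genes: mutant replicate 1 and all 3 control libraries were female and mutant replicates 2 and 3 male. Within the female libraries, which leave 1 mutant against 3 controls, the log2 change of Enpp1 was -0.46 (limma adjusted p = 0.725). The same fit gave -0.091 for Alpl, -0.28 for Phospho1, -0.22 for Smpd3 and -0.17 for Ank, none of them called. It gave -0.0081 for Slc20a1 and -0.12 for Slc20a2. The changes of Alpl and Slc20a1 were smaller than over all libraries by more than 1.5 times and that of Slc20a2 larger, and the part of sex in them was not tested. No control library was male, so in mutant replicates 2 and 3 sex and genotype cannot be told apart.

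Of the 7 members 5 shared their lowest control library, so their values do not follow the labels alone. Alpl, Phospho1, Smpd3, Enpp1 and Ank were all lowest among controls in control replicate 2, and all but Phospho1 were lowest among the 6 libraries in mutant replicate 2. Among mutant libraries Ank was highest in replicate 3, and Alpl, Phospho1, Smpd3 and Enpp1 in replicate 1. Control replicate 2 was also the lowest control for all 10 osteoblast and osteocyte markers, namely Runx2, Sp7, Col1a1, Col1a2, Ibsp, Bglap, Spp1, Dmp1, Phex and Mepe. This was not particular to bone. It held for all 6 cartilage, all 3 hypertrophic cartilage and all 4 osteoclast markers, and for 3 of 4 endothelial markers. Skeletal muscle (4 of 8), leukocyte (3 of 5) and skin and oral epithelium markers (1 of 6) were mixed. So were the related gene lists given below, with 3 of 8 for nucleotide handling and 2 of 7 for sphingomyelin breakdown and phosphocholine supply. The counts were 1 of 5 for other phosphate carriers, 1 of 2 for pyrophosphatases, 2 of 3 for zinc carriers, 3 of 3 for annexins and 0 of 3 for other alkaline phosphatases. It held for 0 of 6 neuron, 0 of 4 tooth and 0 of 4 erythroid markers. The share over all tested genes was not computed. Across the groups the 10 osteoblast and osteocyte markers did not share a direction, as 3 named after their values were seen show. The osteocalcin gene Bglap had a log2 change of -1.41 (limma adjusted p = 0.233). The osteocyte genes Phex and Mepe had changes of 0.38 (limma adjusted p = 0.363) and 0.72 (limma adjusted p = 0.191), and none of the 3 was called. All mutant values lay above all control values for Phex and Mepe, and below them for Bglap and Col1a2. Of all tested genes 9.16% had all mutant values below all control values, and the share in the other direction was not computed. Sp7, a transcription factor required for osteoblasts, measured 70.5, 59.5 and 66.4 FPKM in mutant libraries and 81.4, 59.2 and 82.9 FPKM in control libraries. Col1a1, the main collagen of bone, measured 4142, 3616 and 3855 FPKM in mutant libraries and 5328, 4065 and 5149 FPKM in control libraries. Neither carrier was lowest among controls in control replicate 2. Slc20a1 stayed within 0.17 on the log2 scale over the 6 libraries and Slc20a2 within 0.30, against 0.53 for Alpl and 0.78 for Enpp1. The plot of centred levels by library shows both groups of members.

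**Figure D2:**
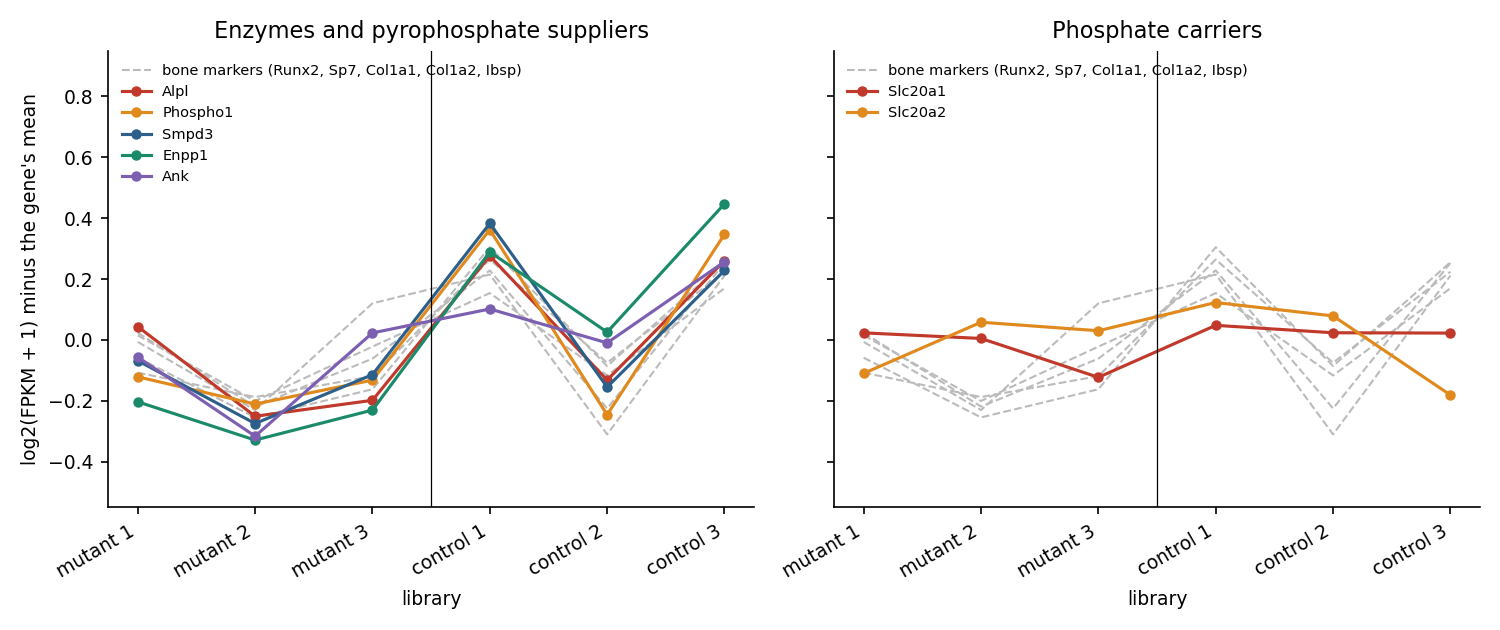
Level of each gene in the 3 mutant and 3 control libraries (x axis) as log2(FPKM + 1) minus the gene's mean over the 6 libraries (y axis); solid lines are members, left the enzymes and pyrophosphate suppliers and right the phosphate carriers, and dashed grey lines are 5 of the 10 osteoblast and osteocyte markers (Runx2, Sp7, Col1a1, Col1a2 and Ibsp) in both panels. The left members and the grey lines have their lowest control value in control replicate 2, Enpp1 staying just above its mean there, whereas the control values of Slc20a1 lie together and Slc20a2 is lowest in control replicate 3.

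For the 3 members with the widest range, the genes of most similar profile were found among 11198 others with a mean of at least 5 FPKM. Likeness was the mean absolute difference of centred log2(FPKM + 1) over the 6 libraries, for which 0 is identity. Closest to Enpp1 were Tnn, which encodes a tenascin (0.036), Plekha2 (0.044) and Fzd9, a Wnt receptor gene (0.051). Tnn measured 25.6, 21.6 and 23.6 FPKM in mutant libraries, against 35.7, 29.98 and 40.1 FPKM in control libraries. Closest to Smpd3 were Kazald1 (0.035), Col1a1 (0.042) and Pcolce, which encodes an enhancer of procollagen processing (0.047). Closest to Phospho1 were Ifitm5, a membrane protein gene of osteoblasts (0.057), Smpd3 (0.061) and Cthrc1 (0.067). Ifitm5 measured 88.2, 80.4 and 83.0 FPKM in mutant libraries, against 122.9, 91.5 and 121 FPKM in control libraries. Among the members themselves, Alpl and Smpd3 (0.064) and Phospho1 and Smpd3 (0.061) were the closest pairs, and Enpp1 and Slc20a2 (0.26) the farthest. Ank was no closer to Phospho1 (0.152) than to the carrier Slc20a1 (0.145). With 6 libraries and so many genes, close matches are to be had for most profiles, and the measure is a description.

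Ratios between members within a library show which of them moved together. The ratio of Alpl to Enpp1, that is of pyrophosphate breakdown to pyrophosphate supply at the level of messenger RNA, was 10.7, 9.54 and 9.19 in mutant libraries and 8.73, 7.97 and 7.70 in control libraries. All mutant values lay above all control values, with a difference of 0.27 on the log2 scale that ran from 0.21 to 0.32 as each library was left out. When Alpl was divided by each of 14692 other genes, 0.476% of the ratios separated the groups in that direction. That share is small in part because Alpl itself had a negative change, so only genes that fell more can be counted. Enpp1 by itself already separated the groups, as did 9.16% of all tested genes in the same direction. Within the female libraries the difference was 0.39. By contrast, the ratio of Phospho1 to Smpd3 was 0.153, 0.165 and 0.156 in mutant libraries and 0.162, 0.147 and 0.178 in control libraries, which overlapped. Slc20a1 to Slc20a2 averaged 1.08 ± 0.117 in mutant and 1.116 ± 0.132 in control libraries, and Alpl to Phospho1 averaged 18.7 ± 1.65 in mutant and 17.8 ± 1.998 in control libraries (SD, n = 3 each), and both overlapped. No test was run on the ratios.

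Enpp1 and Alpl were also each divided by osteoblast genes, a choice made after the values were seen. The gap between the 2 members is the same in these ratios as in their own ratio, since the divisor is shared, and so adds nothing to it. Enpp1 to Sp7 was 0.194, 0.209 and 0.202 in mutant libraries, against 0.241, 0.273 and 0.266 in control libraries. All mutant values were below all control values, as for 0.701% of the 14692 genes. Enpp1 also measured 3.30, 3.44 and 3.47 FPKM per 1000 FPKM of Col1a1 in mutant libraries, against 3.68, 3.98 and 4.28 in control libraries, again without overlap, as for 0.442% of genes. Sp7 and Col1a1 themselves had negative log2 changes (-0.17 and -0.32), so both shares count only genes that fell more than the divisor. Alpl to Sp7 was 2.07, 1.996 and 1.85 in mutant libraries and 2.11, 2.18 and 2.05 in control libraries, which overlapped. Per 1000 FPKM of Col1a1, Alpl measured 35.2, 32.8 and 31.9 FPKM in mutant libraries and 32.2, 31.7 and 32.9 FPKM in control libraries. Smpd3 lay below the control values in all mutant libraries relative to Sp7 (0.657, 0.673 and 0.676 in mutant, 0.783, 0.736 and 0.690 in control libraries) but overlapped relative to Col1a1, and Phospho1 and Ank overlapped with either gene.

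**Figure D3:**
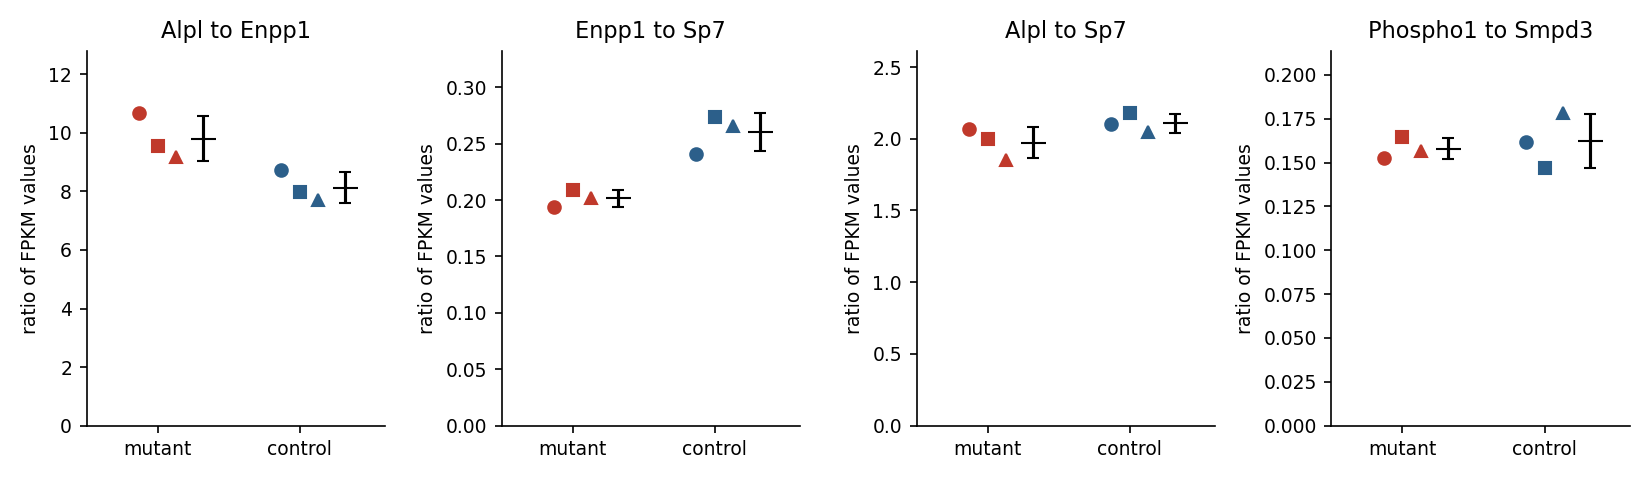
Ratio of the FPKM values of 2 genes (y axis, from 0) in the 3 mutant (red) and 3 control (blue) libraries, with marker shapes for replicates 1 (circle), 2 (square) and 3 (triangle) and the black bar for the mean and SD. Mutant points lie above control points for Alpl to Enpp1 and below them for Enpp1 to Sp7, and the groups overlap for Alpl to Sp7 and Phospho1 to Smpd3.

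Of 31 other genes of phosphate, pyrophosphate and matrix vesicle handling, 25 passed the filter on low values. By limma 0 were called at an adjusted p under 0.05, 1 was higher and 2 were lower at an unadjusted p under 0.05 (5.35% and 5.96% of all tested genes), and 13 changes were positive and 12 negative with a median of 0.017. The other alkaline phosphatase genes Alpi, Akp3 and Alppl2 were each under 0.1 FPKM in every library, so Alpl carried the measured alkaline phosphatase message. The inorganic pyrophosphatase genes Ppa1 and Ppa2, whose enzymes split pyrophosphate inside the cell, had log2 changes of -0.14 (interval from -0.25 to -0.025, limma adjusted p = 0.362) and -0.096 (adjusted p = 0.562). Ppa1 measured 61.3, 56.6 and 58.8 FPKM in mutant libraries, against 63.0, 65.5 and 66.3 FPKM in control libraries, without overlap. Ppa2, Phospho2 and Slc30a5 likewise had all mutant values below all control values, as did 9.16% of all tested genes. The other tested genes of these lists overlapped.

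Among 7 tested genes of extracellular nucleotide handling and ATP release, Entpd3, an ectonucleotidase gene, had a log2 change of 0.31 (limma adjusted p = 0.397). Enpp3, a relative of Enpp1, had a change of 0.21 (limma adjusted p = 0.490), opposite in sign to Enpp1, and averaged 4.79 ± 0.510 FPKM in mutant and 4.002 ± 0.462 FPKM in control libraries. Abcc6, a transporter gene needed for ATP release from liver, did not pass the filter. In the 7 tested genes of sphingomyelin breakdown and phosphocholine supply, Phospho2, the relative of Phospho1, had a change of -0.18 (limma adjusted p = 0.472) and Chka, which encodes choline kinase alpha, a change of -0.096 (adjusted p = 0.606). Slc34a2, the only sodium-coupled carrier of its family to pass the filter, had a change of 0.18 (limma adjusted p = 0.733), and Slc25a3, the mitochondrial phosphate carrier gene, a change of -0.018 (adjusted p = 0.925). The annexins Anxa5 and Anxa6, proteins of matrix vesicles, had changes of -0.066 and 0.063, and the secretory zinc carriers Slc30a6 and Slc30a5, from a family that loads zinc into alkaline phosphatase, changes of -0.19 and -0.055, none called.

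**Figure D4:**
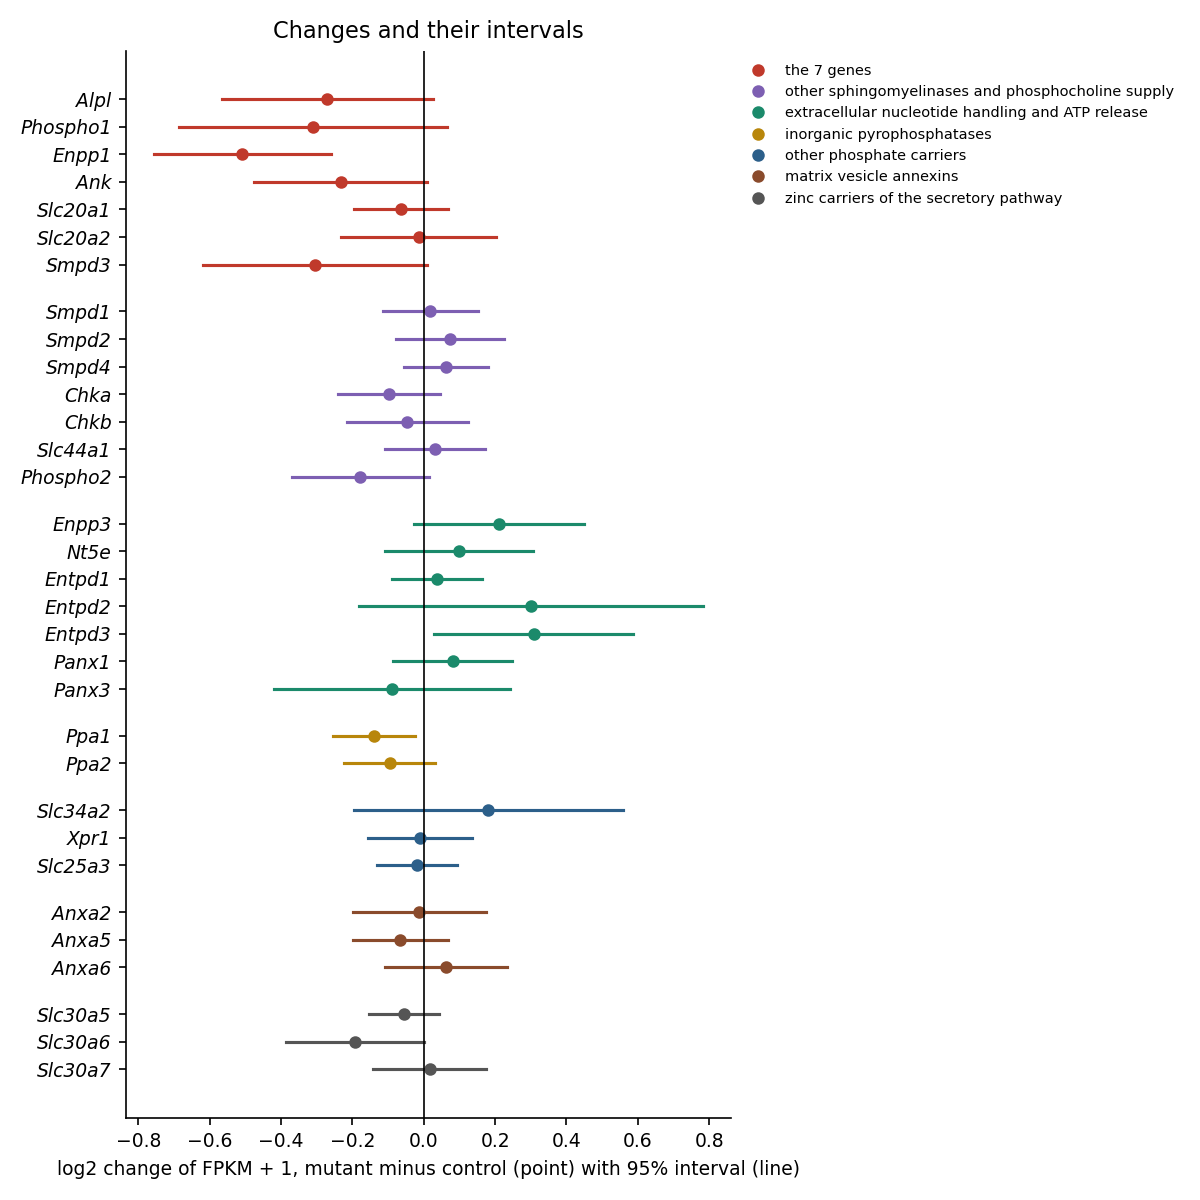
Log2 change of FPKM + 1, mutant minus control (x axis, point), with its 95% interval (line) for the 7 genes (red) and the 25 tested genes of the other lists (y axis, coloured by list). Of the 7, the interval of Enpp1 alone lies wholly below 0, and no gene shown had a limma adjusted p under 0.05.

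Marker genes of the tissues in the dissection varied across the libraries, and their part in the values above was not tested. Pth1r measured 69.7 to 78.4 FPKM in mutant and 55.2 to 75.2 FPKM in control libraries (limma adjusted p = 0.686), and as the labels do not give the floxed part this does not check the genotypes. The summed level of 10 osteoblast and osteocyte markers ran from 7817 to 8868 FPKM in mutant and from 8614 to 11530 FPKM in control libraries, with 8 of 10 changes negative and 0 called by limma (3 lower and 2 higher at an unadjusted p under 0.05). Col1a1 and Col1a2 made up most of that sum in every library, so it says little of the other markers. The 6 cartilage markers summed to 262.8 to 490.9 FPKM in mutant and 1098 to 1340 FPKM in control libraries, and 5 of the 6 fell (limma, adjusted p under 0.05). Of 3 hypertrophic cartilage markers Col10a1, the collagen of that cartilage, rose to 54.5 to 77.0 FPKM in mutant libraries, against 1.21 to 1.28 FPKM in control libraries (limma adjusted p = 1.18e-05). Mmp13, which made up most of the list's sum in control libraries, measured 33.95 to 39.6 FPKM in mutant and 48.4 to 116.2 FPKM in control libraries (adjusted p = 0.318), and the sums of the list ran from 98.0 to 123 FPKM in mutant and from 51.6 to 120.9 FPKM in control libraries. The 4 tooth markers, of cells that also mineralize, summed to 11.98 to 18.3 FPKM in mutant libraries and to 119.6, 133.4 and 3.81 FPKM in control replicates 1, 2 and 3. Sums of 8 skeletal muscle markers were 330.4 to 856.2 FPKM in mutant and 224.6 to 370.7 FPKM in control libraries, and those of 6 skin and oral epithelium markers 1189 to 1251 FPKM in mutant and 495 to 1068 FPKM in control libraries. Neuron, osteoclast, endothelial and erythroid sums overlapped between the groups, and 5 leukocyte markers summed to 161 to 169.8 FPKM in mutant and 127.7 to 139.9 FPKM in control libraries. Of these 5, only S100a8 and S100a9 had all mutant values above all control values. The leukocyte markers Ptprc, Csf1r and Cd68 overlapped, so that gap says little of leukocytes as a whole. No marker of any of these lists was at 0 in all libraries.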

How the data were processed

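Messenger RNA libraries of 3 mutant and 3 control samples were compared, with groups taken from the labelled genotypes. TRIzol extraction and the TruSeq stranded kit for messenger RNA were used, per the labels' protocols. The authors deposited FPKM values, 1 per gene symbol, per the file headers; Cuffdiff 2.2.1, SAMtools 0.1.18, Bowtie2 2.2.8, TopHat2 2.1.1 and build mm10 are named in the submitters' processing notes. No source used here gives the annotation, the filters, the strand setting or any scaling between libraries. FPKM are not counts, and total depth is unknown. The spacing of values under 0.15 FPKM gave library sizes, relative to control replicate 1, of 1.02, 0.903 and 0.67 for mutant replicates 1 to 3 and 1.11 and 0.938 for control replicates 2 and 3. Each is an estimate from the commonest ratio of such values, held by 36.35% (mutant replicate 1) to 41.66% (control replicate 3) of the low genes. By it mutant replicate 3 may be the least precise.

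Values were analysed as log2(FPKM + 1) for the genes averaging 1 FPKM or more, by limma 3.58.1 in R 4.3.3 (lmFit, then eBayes with trend; two-sided, without covariates). P-values were Benjamini-Hochberg adjusted over the whole table. The fit was tested on simulated data with independent noise for each value, only as a check of the code. Variation shared among genes was not simulated, so the check does not bear on the absence of called members. Positions are from GENCODE for GRCm38, the same assembly as mm10, and upstream sequences from RefSeq GRCm38.p6. All 7 members are named with all values. From each list of related genes every called gene is named, or else the 2 of smallest p. The members and lists were chosen with earlier results of these data known. Alternatives were other pseudocounts, filters, scalings, variance models and thresholds, library weights, sex as a covariate, female libraries alone, and leaving out each library. Plots were drawn with matplotlib 3.10.9.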

Additional observations from a re-analysis of the deposited data

How the results depend on the processing

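By limma 0 members and 0 of the related genes were called in any of the 18 alternative fits, and 0 at an adjusted p under 0.1 in the fit of the report. At an unadjusted p under 0.05, 5 members passed without control replicate 2, 2 with library weights, without mutant replicate 1 or without mutant replicate 3, and 1 in each other fit. Enpp1 ran from -0.62 to -0.41, with adjusted p from 0.0848 (without control replicate 2) to 0.964 (sex as a covariate). Alpl ran from -0.40 to -0.091, Phospho1 from -0.51 to -0.21, Smpd3 from -0.46 to -0.19, Ank from -0.30 to -0.13 and Slc20a1 from -0.090 to -0.0081. Slc20a2 was negative in 15 of 18 fits and ran from -0.11 to 0.044 as each library was left out, with -0.12 in female libraries alone, being 0.037 without mutant replicate 1, 0.044 without control replicate 1 and 0.022 without control replicate 2. Over all genes limma called 39. It called 18 with no filter, 19 without trend, 71 with library weights, 10 with sex as a covariate, and from 15 to 44 as each library was left out. Where 1 mutant library remained, it was assumed to vary like the controls. Sex as a covariate gave the same member changes as female libraries alone, since both rest on mutant replicate 1 against the controls. The ratio difference of Alpl to Enpp1 was 0.39 in female libraries alone. Scaling moved the median change of all genes by under 0.1. No paired analysis was possible because the labels give no replicate numbers; those used here only name the libraries in accession order, and the same number in both groups marks no pair.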
